A study of Mus musculus with 18 samples.

Results

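CD8+ T cells and CD4+ conventional T cells (CD4+ Tconv) were set against each other under control vesicles, which made up 6 of the 18 arrays in the series, 3 per subset. The cells came from the spleens of mice carrying a Foxp3 YFP/cre allele, in which YFP and Cre are driven by the Foxp3 locus, so both subsets carried it, and CD4+ Tconv were sorted as CD4+ cells without Foxp3. After sorting, cells of either subset were cultured for 24 h with IL2 at 10 ng/ml and small extracellular vesicles (sEVs). The control vesicles, HCME-sEVs, had been prepared from the spleen microenvironment of healthy mice, and the arrays of the other treatment received LME-sEVs from the spleens of leukemic Eμ-TCL1 mice. The labels give 50 ug/ml of vesicles for every sample, whereas the methods scale the amounts to the vesicle content of each kind of spleen. The labels give neither age nor sex, while the methods describe young adults of both sexes, matched within an experiment. The labels also do not say whether the 3 replicates were separate animals or cultures. The p-values therefore reflect how far these arrays lay apart, a spread that may be only technical. No untreated cells were analysed here, so both subsets were seen only after culture with IL2 and vesicles. All 6 arrays were kept, and all 22206 probe sets of the Clariom S mouse array were tested.

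CD8+ and CD4+ T cells arise in the thymus from a common precursor that carries both coreceptors. The transcription factor Runx3 silences Cd4 and sustains the cytotoxic lineage, and ThPOK, encoded by Zbtb7b, holds the helper lineage and represses cytotoxic genes. CD8 binds MHC class I and CD4 binds MHC class II, the CD8+ cells go on to kill by granules and the CD4+ cells help B cells and macrophages through CD40 ligand and cytokines. In mice, memory-type CD8+ T cells depend on IL15 and IL2 through the receptor chain Il2rb, and Eomes is a T-box factor that sustains them.

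The arrays of the subsets differed in more than lineage genes. In the deposited log2 values, the signal exceeded by the top decile of probe sets was 11.72 to 11.75 on the CD8+ arrays and 10.32 to 10.51 on the CD4+ Tconv arrays. The 1427 probe sets of olfactory, trace amine and vomeronasal receptors, genes that T cells are not known to use, served as a measure of background. Their 95th percentile ran from 8.08 to 8.24 on the CD8+ arrays and from 8.51 to 8.78 on the CD4+ Tconv arrays. The deposited median difference, CD8+ minus CD4+ Tconv, accordingly went from -0.24 in the decile of probe sets with the lowest signal to 1.0 and 0.94 in the highest 2 deciles. After quantile normalization of the 6 arrays it lay between -0.07 and 0.02 in every decile, and these normalized values are used below. The titles carry running numbers in which the CD4+ Tconv arrays form a run of their own, while those of CD8+ T cells and Treg are mixed in another. What the numbers stand for was not stated, and the run and the subset cannot be told apart for CD4+ Tconv. Whether the authors normalized each subset by itself was not given in the sources used here.

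**Figure D1:**
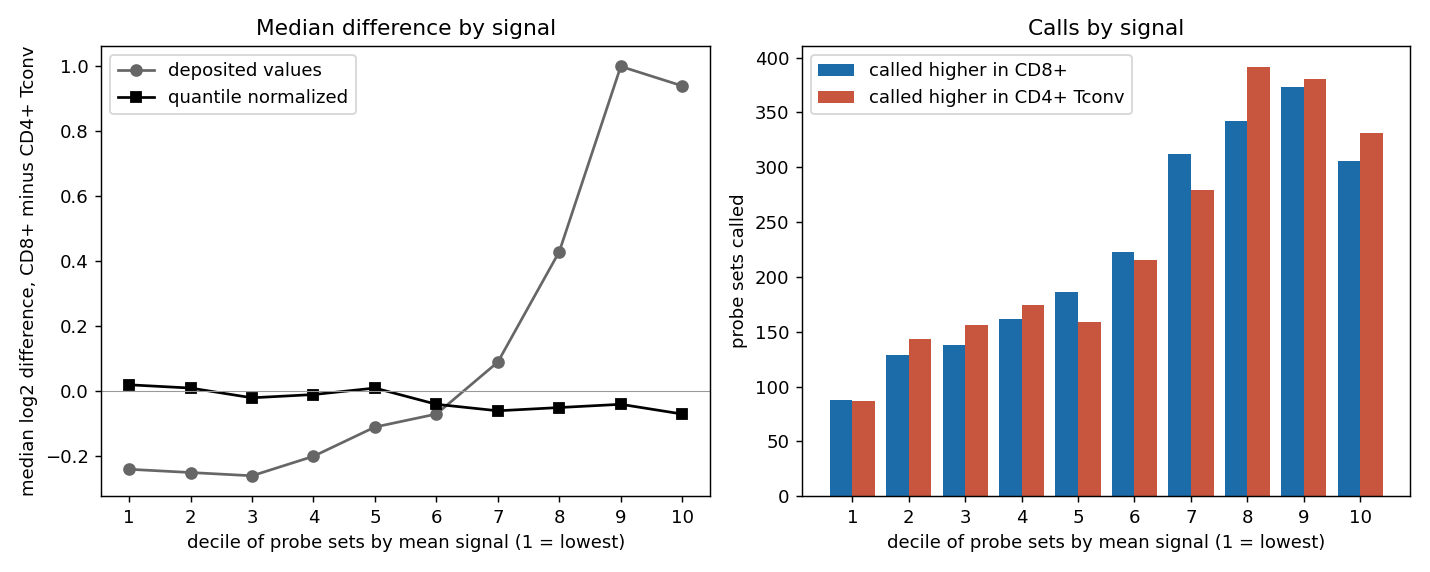
Left, the median log2 difference between CD8+ T cells and CD4+ Tconv under HCME-sEVs (vertical axis) in deciles of probe sets ordered by mean signal (horizontal axis), for deposited and quantile normalized values. Right, the number of probe sets called higher in either subset in the same deciles. The deposited median climbs from -0.24 in the lowest decile to 0.94 in the highest, and the normalized one stays between -0.07 and 0.02.

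A probe set was called when its adjusted p was below 0.05 and its log2 difference was above 1 in size. By this rule 4574 of 22206 probe sets were called (20.6%), 2259 higher in CD8+ T cells (10.2%) and 2315 higher in CD4+ Tconv (10.4%), and the median difference over all probe sets was -0.02. The 3 values of one subset did not overlap the 3 of the other in 11421 probe sets (51.4%). A gene list whose share of calls in a direction lies near these values is at the level of the array as a whole. Background was set for each subset at the 95th percentile of the receptor probe sets, 8.05 for CD8+ T cells and 8.82 for CD4+ Tconv, and a mean below it is called below background here. Among the 8170 probe sets above background in at least 1 subset, 1570 were called higher in CD8+ T cells (19.2%) and 1254 higher in CD4+ Tconv (15.3%). For a list whose members lie mostly above background, these larger shares are a second measure, with a limit. A probe set could enter only through the subset where it was high, and the cutoff was lower for CD8+ T cells. How far this entry rule raised the shares or tilted them towards CD8+ T cells was not tested. The receptor probe sets were not free of calls, with 38 called higher in CD8+ T cells and 173 higher in CD4+ Tconv, and their median difference was -0.15. Their part in the other calls was not tested. The share of calls that were higher in CD8+ T cells was 49.4% and went to 65.8% in the deposited values and to 42.5% when each array was centred on its probe sets above background. A further pair of scalings, cyclic loess and a linear one that set the receptor median and the upper decile of every array equal, were also tried. In the deposited values, arrays of a subset correlated over probe sets at 0.966 to 0.973 for CD8+ T cells and at 0.980 to 0.985 for CD4+ Tconv. Between the subsets they correlated at 0.889 to 0.918, on values whose signal range differed by subset.

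The coreceptor genes checked the sort. Cd8b1, the beta chain of CD8, had the largest positive difference of all probe sets, reading 17.54, 17.45 and 17.61 in CD8+ T cells and 10.24, 10.16 and 9.82 in CD4+ Tconv. Its mean on the CD8+ arrays ranked at percentile 99.7 of all signals, and the difference was 7.46 (SE 0.19, adjusted p = 1.44e-06). Cd8a, the alpha chain, read 13.05, 13.07 and 12.71 against 7.79, 7.70 and 7.75, the lower group lying below background. Its difference was 5.20 (SE 0.18, adjusted p = 7.62e-06). Cd4 read 8.44, 8.53 and 8.25 in CD8+ T cells and 10.43, 10.99 and 10.89 in CD4+ Tconv. The groups did not overlap, but the spacing was smaller than for either CD8 chain (-2.36, SE 0.21, adjusted p = 2.49e-04). The mean of Cd4 ranked at percentile 88.5 on the CD4+ Tconv arrays and at 69.7 on the CD8+ arrays, and the latter was not below background. On the CD4+ Tconv arrays Cd8b1 was not below background either, with a mean of 10.07 at percentile 84.6. In bulk samples, fewer cells carrying a transcript and less of it per cell cannot be told apart.

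**Figure D2:**
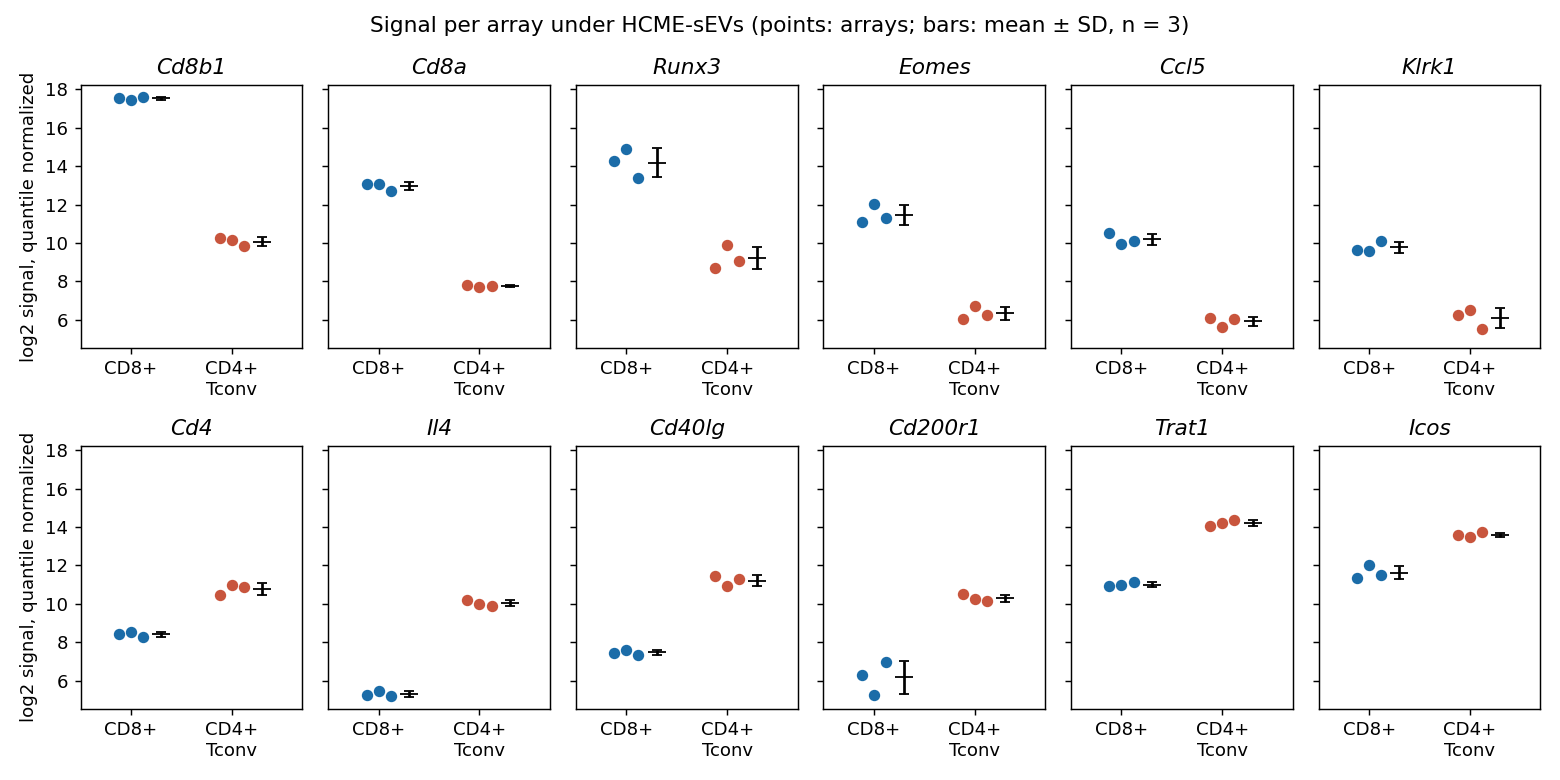
Quantile normalized log2 signal (vertical axis) of 12 genes on each of the 3 CD8+ arrays (blue points) and 3 CD4+ Tconv arrays (red points) under HCME-sEVs, with the mean and SD in black. The upper row holds genes higher in CD8+ T cells and the lower row genes higher in CD4+ Tconv, and in all 12 the subsets are apart.

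Of the transcription factors that mark the CD8 lineage or its effector states, 12 were measured, and 2 were called higher in CD8+ T cells, 1 was called higher in CD4+ Tconv and 9 were not called (median -0.08, which turned to 0.13 under the linear scaling). Runx3, the CD8 lineage factor, read 14.29, 14.89 and 13.40 in CD8+ T cells and 8.71, 9.87 and 9.07 in CD4+ Tconv. Its lowest CD8+ array was still more than 3 log2 units above its highest CD4+ array (4.97, SE 0.41, adjusted p = 2.06e-04). Eomes read 11.07, 12.02 and 11.30 against 6.05, 6.73 and 6.26. On the CD4+ Tconv arrays it lay below background, and the difference was 5.12 (SE 0.29, adjusted p = 7.01e-05). Id2, an inhibitor of E proteins that effector T cells raise, went the other way, with 11.61, 12 and 12.01 in CD8+ T cells and 13.94, 13.66 and 13.98 in CD4+ Tconv (-1.99, SE 0.20, adjusted p = 3.50e-04, and -0.89 and not called in the deposited values). Tbx21, which encodes T-bet, was below background in both subsets at means of 6.03 and 6.18 (difference -0.14, adjusted p = 0.739).

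The promoter of Runx3 is shown because the gene was among the largest lineage differences and its product binds the motif TGTGGT, and those of Cd8a and Il4 because these lineage genes were among the largest differences on either side. RefSeq (GRCm38.p6) lists 2 starts for Runx3, and the array gives 1 value for the gene. Below are the 250 bases before the upstream start (chr4:135120395-135120644, plus strand), then those before the single start of Cd8a (chr6:71373177-71373426, plus strand) and before the upstream of 2 starts of Il4 (chr11:53618666-53618915, minus strand). Capitals mark TGTGGT or its reverse complement ACCACA.
Runx3: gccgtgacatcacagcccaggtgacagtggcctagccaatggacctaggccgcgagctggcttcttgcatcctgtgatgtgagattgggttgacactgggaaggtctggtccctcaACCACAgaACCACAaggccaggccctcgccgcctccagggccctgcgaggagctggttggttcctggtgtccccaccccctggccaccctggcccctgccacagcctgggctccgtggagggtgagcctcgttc
Cd8a: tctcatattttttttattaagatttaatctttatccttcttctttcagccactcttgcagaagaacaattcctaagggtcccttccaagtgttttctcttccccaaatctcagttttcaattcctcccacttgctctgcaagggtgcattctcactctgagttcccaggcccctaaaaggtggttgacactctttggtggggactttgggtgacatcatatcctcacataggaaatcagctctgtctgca
Il4: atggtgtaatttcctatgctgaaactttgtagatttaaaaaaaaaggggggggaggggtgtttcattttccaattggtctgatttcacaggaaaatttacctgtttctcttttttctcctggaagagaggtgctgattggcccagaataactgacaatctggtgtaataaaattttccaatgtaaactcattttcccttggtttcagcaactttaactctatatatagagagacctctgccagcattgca
The upstream Runx3 promoter held the motif 2 times, with the matches starting 134 and 126 bases before the gene start. The other Runx3 promoter and those of Cd8a, Eomes and Il4 did not hold it, and none of these promoters held the T-box core AGGTGT on either strand. A match is a description of the letters and not a binding site. The letters TGTGGT or ACCACA stood in 14.0% of all 32851 promoters of this length. Of the 3173 called genes that matched a promoter, 13.8% of those higher in CD8+ T cells and 14.3% of those higher in CD4+ Tconv held them, beside 13.7% of all genes tested. AGGTGT or ACACCT stood in 11.8% of all promoters. By gene, 11.3% of those higher in CD8+ T cells and 13.2% of those higher in CD4+ Tconv held them, beside 12.7% of all genes tested.

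The factors of the helper lineages showed less. Of 13 measured, 1 was called higher in each subset (median 0.34, which turned to -0.19 and -0.03 under 2 other scalings). These calls were 15.4% of the list, beside 20.6% of all probe sets. Zbtb7b read 5.91, 5.96 and 6.08 in CD8+ T cells and 6.49, 6.61 and 7.07 in CD4+ Tconv. The groups did not overlap and the direction was that of the lineage, but all 6 values lay below background. The difference of -0.74 was under the fold threshold (SE 0.20, adjusted p = 0.0225). Zbtb7b was called under 2 alternatives, and other scalings gave -1.24 to -0.58. Rora, a nuclear receptor used by several helper subsets, was called higher in CD4+ Tconv, at 9.74, 9.50 and 9.55 against 7.50, 8.71 and 8.16 (-1.47, SE 0.29, adjusted p = 0.00571, and -0.92 and not called in the deposited values). Myb was the member called higher in CD8+ T cells (2.06, SE 0.34, adjusted p = 0.00239). Gata3 and Foxp3 were not analysed here.

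Among the cytotoxic granule genes, 23 were measured, with 7 called higher in CD8+ T cells, 4 called higher in CD4+ Tconv and a median of 0.66. Nkg7, a granule membrane protein needed for efficient degranulation, read 13.42, 12.96 and 13.16 in CD8+ T cells and 10.43, 10.82 and 10.63 in CD4+ Tconv (2.55, SE 0.20, adjusted p = 1.81e-04). Cst7, an inhibitor of cathepsins, and Ctsw, a lysosomal cysteine protease of killer cells, were higher by 2.64 (SE 0.27, adjusted p = 3.73e-04) and 2.28 (SE 0.21, adjusted p = 2.67e-04). Gzmb, the granzyme B protease, read 8.96, 8.91 and 10.16 against 6.52, 7.44 and 7.24. CD8+ replicate 3 was above the other two by over 1 log2 unit, and the difference was 2.28 (SE 0.38, adjusted p = 0.00255). Prf1, which encodes the pore-forming protein perforin, was below background in both subsets at means of 5.74 and 5.53 (difference 0.21, adjusted p = 0.490). Gzma and Gzmk were not called either, with differences of 1.0 (adjusted p = 0.0307) and 0.72 (adjusted p = 0.137). Gzma lay at the fold threshold and was called under 5 alternatives, the deposited values and cyclic loess among them, and Gzmk was called in the deposited values and in centred arrays. On the CD4+ Tconv side stood Rab27a, a GTPase that docks secretory granules, with 10.62, 10.23 and 11.37 against 7.24, 7.39 and 8.69 (-2.97, SE 0.42, adjusted p = 0.00136). The other 3 members called there, Fasl (-1.83), Sytl2 (-1.49) and Gzmc (-1.24), lay below background in both subsets, and the call of Gzmc was lost under the linear scaling.

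Of the receptors that T cells share with NK cells, 9 of 22 measured were called higher in CD8+ T cells and 0 higher in CD4+ Tconv (median 0.78), and 16 of the 22 differences were positive. When arrays were centred above background 2 were called higher in CD4+ Tconv, and 1 was under the linear scaling. Klrk1, the activating receptor NKG2D, read 9.64, 9.58 and 10.12 in CD8+ T cells and 6.23, 6.50 and 5.51 in CD4+ Tconv (3.70, SE 0.28, adjusted p = 1.60e-04). Klrc1 encodes NKG2A, which pairs with CD94 to bind the class Ib molecule Qa-1, and read 9.26, 9.03 and 9.66 against 6.98, 6.28 and 6.11 (2.86, SE 0.28, adjusted p = 3.16e-04). Its partner CD94, Klrd1, was bright in both subsets, at 16.80, 16.92 and 16.90 and 14.96, 14.89 and 14.99, and the difference of 1.93 (SE 0.16, adjusted p = 2.31e-04) turned to -1.0 under the linear scaling. Klra7, a receptor of the Ly49 family for class I, read 11.72, 11.86 and 12.53 against 9.18, 8.83 and 9.31 (2.93, SE 0.26, adjusted p = 2.44e-04). Klra3, Klra6, Klra9, Klrc2 and Klrc3 made up the rest of the 9, with differences from 1.29 to 2.36, and the call of Klrc2 was lost in the centred arrays. Except for Klra9, these 5 lay below background in both subsets. Ly49 and NKG2 genes resemble each other closely, and hybridization across family members was not tested. NK cells themselves were checked by 10 markers, of which 2 were called higher in CD8+ T cells (Eomes and Klra9) and 0 higher in CD4+ Tconv. The summed signal of the 10 was 12.20 to 12.89 on the CD8+ arrays and 11.12 to 11.53 on the CD4+ Tconv arrays in log2. The defining NK receptor Ncr1 lay below background in both subsets (means 6.91 and 6.41, adjusted p = 0.133).

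Helper molecules were the counterpart. Of 23 measured, 6 were called higher in CD4+ Tconv and 2 higher in CD8+ T cells, and the median was -0.57. Il4, the cytokine that drives type 2 help, had the second largest of the CD4+ Tconv differences named here, reading 10.20, 10 and 9.88 there and 5.27, 5.47 and 5.19 in CD8+ T cells. The difference was -4.72 (SE 0.18, adjusted p = 1.13e-05). Its CD8+ mean of 5.31 was below background, and against the background of 8.05 the CD4+ Tconv mean was higher by 1.98. Cd40lg, the ligand by which CD4+ cells license B cells and dendritic cells, read 11.45, 10.90 and 11.29 against 7.45, 7.60 and 7.32 (-3.76, SE 0.20, adjusted p = 6.17e-05). Icos, a costimulator for follicular help, was bright in both subsets, reading 11.32, 12.01 and 11.52 in CD8+ T cells against 13.60, 13.49 and 13.72 in CD4+ Tconv (-1.99, SE 0.22, adjusted p = 4.81e-04). Cd200, an inhibitory ligand, Il5, a cytokine of eosinophils, and Tnfrsf4, the costimulator OX40, completed the 6 with differences of -1.75, -1.51 and -1.22. Icos and Tnfrsf4 were not called in the deposited values, at -0.86 and -0.09. Tnfsf8, the CD30 ligand, went against the list, at 9.82, 10.78 and 10.24 in CD8+ T cells and 7.99, 7.58 and 7.07 in CD4+ Tconv (2.74, SE 0.31, adjusted p = 5.37e-04). Gpr183, the oxysterol receptor that guides cells to the follicle edge, was the other (1.05, adjusted p = 0.0268), and it lost the call without CD4+ Tconv replicate 1 or 3 or CD8+ replicate 2 or 3 (0.72 to 1.32 with 1 array left out).

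Of 22 cytokine genes, 3 were called in each direction (median 0.27, which turned to -0.15 when arrays were centred above background). Ltb, the membrane lymphotoxin beta of resting lymphocytes, read 13.37, 13.41 and 13.10 in CD8+ T cells and 9.74, 10.48 and 8.83 in CD4+ Tconv (3.61, SE 0.37, adjusted p = 3.95e-04). Ifng, the effector cytokine of both lineages, was called higher in CD4+ Tconv (-1.16, SE 0.24, adjusted p = 0.00691), but its means of 7.49 and 8.66 were below background and the call was lost in the deposited values. Il4 and Il5 were the other 2 called there. Il17f was below background as well (1.82), and Il16 was called at 1.01 (adjusted p = 0.00968) but not without CD4+ Tconv replicate 1 or 3 or any single CD8+ array (0.93 to 1.27 with 1 array left out).

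Of 15 chemokines 3 were called higher in CD8+ T cells, all of them made by cytotoxic lymphocytes, and 0 higher in CD4+ Tconv (median -0.24). Ccl5 read 10.52, 9.97 and 10.12 in CD8+ T cells and 6.11, 5.64 and 6.02 in CD4+ Tconv, where it was far below background (4.28, SE 0.22, adjusted p = 5.36e-05). Xcl1, the ligand for cross-presenting dendritic cells, read 11.14, 11.54 and 11.12 against 9.17, 8.37 and 9.15 (2.37, SE 0.26, adjusted p = 4.84e-04). Ccl3 read 7.50, 9.84 and 8.0 against 6.88, 6.91 and 7.0. CD8+ replicate 2 stood above the rest (1.52, SE 0.52, adjusted p = 0.0480), which was 0.80 without CD8+ replicate 2 and lost the call there and without any single CD4+ Tconv array. Of 22 chemokine and homing receptors 3 were called, all higher in CD8+ T cells (median 0.26), beside 9 in the deposited values and, in centred arrays, 4 with 6 higher in CD4+ Tconv. Ccr9, the receptor for gut homing, read 8.45, 10.45 and 9.58 against 6.91, 6.73 and 7.01 (2.61, SE 0.43, adjusted p = 0.00258). Cxcr4 was higher by 2.22 (SE 0.29, adjusted p = 9.65e-04), and Gpr183, above, was the other member. Ccr7, the receptor for lymph node entry, was bright and close in both subsets, with means of 14.18 and 13.85 (95% interval of the difference -0.15 to 0.81). Other scalings gave -1.21 to 1.19, and Ccr7 was called under 1 alternative.

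Cytokine receptors held one of the largest shares of calls, with 14 of 28 called higher in CD8+ T cells and 0 higher in CD4+ Tconv (median 0.97). These counts were 11 and 1 under the linear scaling. Il2rb, the signalling chain for IL2 and IL15, read 9.82, 10.05 and 8.50 in CD8+ T cells and 6.14, 5.75 and 6.17 in CD4+ Tconv. Replicate 3 of the CD8+ arrays was the lowest of its group and still above every CD4+ Tconv array (3.44, SE 0.38, adjusted p = 4.96e-04). Il2ra, the high-affinity chain, was below background in both (means 7.10 and 6.62, adjusted p = 0.0847), and Il7r was among the brightest genes of both (means 16.29 and 16.60, 95% interval of the difference -0.80 to 0.19), though under the linear scaling it was called higher in CD4+ Tconv (-3.80). Il10rb read 14.42, 12.50 and 13.35 against 9.88, 9.26 and 10.01 (3.71, SE 0.45, adjusted p = 6.74e-04). Il10ra, its partner for IL10, was higher by 1.83 (SE 0.27, adjusted p = 0.00160) and Tgfbr1, the type I receptor for TGF beta, by 1.55 (SE 0.30, adjusted p = 0.00508). Il18r1 and Il18rap, the 2 chains that bind IL18, were higher by 1.29 and 1.08, the latter call being lost without CD4+ Tconv replicate 2 or 3 or CD8+ replicate 3 (0.70 to 1.28 with 1 array left out).

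Genes of the IL2 and STAT5 response followed with 6 of 19 called higher in CD8+ T cells and 1 higher in CD4+ Tconv (median 0.48). Bcl2, the survival factor, read 14.25, 13.90 and 14.06 in CD8+ T cells and 11.19, 11.03 and 11.16 in CD4+ Tconv (2.95, SE 0.18, adjusted p = 9.43e-05). Myc, which drives growth, was higher by 1.91 (SE 0.32, adjusted p = 0.00280) and the kinase Jak1 by 1.67 (SE 0.21, adjusted p = 7.51e-04). Socs2, a feedback inhibitor, was the member higher in CD4+ Tconv (-1.52, SE 0.25, adjusted p = 0.00255).

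All calls among the T-cell receptor complex and its proximal signalling genes lay on the CD8+ side after quantile normalization. Of 32 measured, 15 were called higher in CD8+ T cells and 0 higher in CD4+ Tconv (median 0.94). The invariant chains Cd3d and Cd3g were bright in both subsets, with differences of -0.03 (95% interval -0.44 to 0.38) and -0.06 (-0.43 to 0.32), which under the linear scaling became -4.42 and -2.98 and were called. Cd3e was higher in CD8+ T cells by 1.27 (SE 0.19, adjusted p = 0.00181). Csk, the kinase that restrains Lck and Fyn, read 9.82, 9.60 and 9.08 against 6.97, 6.69 and 7.41 (2.48, SE 0.26, adjusted p = 4.39e-04). Txk, a kinase of the TEC family, and Fyn, a kinase of the SRC family, were higher by 2.27 and 1.83. Themis, a thymocyte signalling protein, was higher by 1.41 (SE 0.23, adjusted p = 0.00236). Outside the list, Trat1, an adaptor that stabilises surface T-cell receptor, was higher in CD4+ Tconv, at 14.04, 14.23 and 14.37 against 10.90, 10.96 and 11.14 (-3.21, SE 0.18, adjusted p = 7.01e-05). Under the linear scaling 10 members of the list were called higher in CD8+ T cells and 6 higher in CD4+ Tconv, Cd3e and Themis lost their calls, and Ptprc, which encodes CD45, turned from 1.80 to -2.20.

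Naive and quiescence factors were higher in CD8+ T cells where they were called, 7 of 16 against 0 (median 0.90), beside 6 against 2 under the linear scaling. Ikzf1, the factor Ikaros, read 15.11, 14.16 and 14.24 in CD8+ T cells and 12.56, 12.48 and 12.48 in CD4+ Tconv (2.0, SE 0.26, adjusted p = 9.98e-04). Slfn2, which keeps T cells quiescent in mice, was higher by 2.26 (SE 0.20, adjusted p = 2.51e-04) and Bcl11b, an identity factor of T cells, by 1.76 (SE 0.19, adjusted p = 4.44e-04). The call of Ikzf1 was lost under the linear scaling. Klf3 and Id3 were called at 1.24 and 1.49, the latter below background in both subsets and not called without CD4+ Tconv replicate 3 (1.17 to 1.80 with 1 array left out). Txnip, which lowers glucose uptake, was called at 1.07, was not called without CD4+ Tconv replicate 1 (0.94 to 1.25 with 1 array left out) and turned to -2.23 under the linear scaling. Foxp1, a brake on naive T cells, was called at 1.79 and turned to -0.43 under the linear scaling. Lef1, a factor of naive cells, did not pass (difference 0.58, adjusted p = 0.0538), though it was called under 2 alternatives. Tcf7 was not analysed here.

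Surface genes of memory cells and the Ly6 family moved both ways, with 8 of 23 called higher in CD8+ T cells and 4 higher in CD4+ Tconv (median 0.59, which turned to -0.77 under the linear scaling, with 6 and 11 called). Cd7, an immunoglobulin family receptor, read 15.38, 14.51 and 14.64 in CD8+ T cells and 10.86, 11.25 and 10.11 in CD4+ Tconv (4.10, SE 0.34, adjusted p = 2.0e-04). Ly6c2, a marker of memory CD8+ T cells in mice, read 16.55, 16.41 and 16.42 against 13.08, 13.28 and 13.50 (3.17, SE 0.18, adjusted p = 7.36e-05), and its near copy Ly6c1 could share its signal, at 2.49 and -0.20 under the linear scaling. Cd81, a tetraspanin, read 11.34, 10.70 and 11.09 in CD4+ Tconv and 8.33, 8.11 and 8.37 in CD8+ T cells (-2.77, SE 0.21, adjusted p = 1.60e-04). Slamf1, Ly6d and Cd55 were the other 3 called higher in CD4+ Tconv (-1.27, -1.20 and -1.01), and none of these was called in the deposited values, in which Cd55 stood at 0.03. Cd55 was also not called without CD4+ Tconv replicate 1 or 2 or CD8+ replicate 1 or 2 (-1.18 to -0.92 with 1 array left out). Cd44, the classical memory marker, was called at 1.33 (adjusted p = 0.0132), below background in both subsets and not called without CD4+ Tconv replicate 1 or 3 (1.09 to 1.66 with 1 array left out). Integrins and adhesion genes gave 8 of 23 higher in CD8+ T cells and 0 higher in CD4+ Tconv (median 0.59, and 8 and 2 under the linear scaling). Itgae, the CD103 chain that binds E-cadherin on epithelium, read 9.30, 9.28 and 9.36 against 6.57, 6.16 and 6.66 (2.85, SE 0.19, adjusted p = 1.31e-04). Cd226, the activating receptor DNAM-1, was higher by 2.36 (SE 0.20, adjusted p = 2.03e-04).

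Costimulators and inhibitory receptors had calls in both directions. Of their members 33.3% and 35.3% were called, beside 20.6% of all probe sets and 34.6% of those above background. Of 12 costimulators of the TNF receptor family, 2 were called higher in each subset (median 0.00). Tnfrsf25, the receptor DR3, read 11, 10.87 and 11.43 in CD4+ Tconv and 9.07, 9.20 and 8.84 in CD8+ T cells (-2.06, SE 0.21, adjusted p = 3.99e-04), and Tnfrsf4 was the other. Tnfrsf14, the receptor HVEM, and Tnfrsf10b were higher in CD8+ T cells by 1.43 and 1.52, the latter below background. Of 17 inhibitory receptors and ligands, 4 were called higher in CD8+ T cells and 2 in CD4+ Tconv (median -0.22). Cd200r1, the receptor for CD200, read 10.50, 10.25 and 10.13 in CD4+ Tconv and 6.27, 5.27 and 6.98 in CD8+ T cells. The CD8+ values were spread over more than 1 log2 unit and all lay below background (-4.12, SE 0.39, adjusted p = 2.89e-04). Its ligand Cd200, above, was the other member higher in CD4+ Tconv. Lair1, a collagen receptor, was higher in CD8+ T cells by 2.36 (SE 0.19, adjusted p = 1.78e-04), Vsir, which encodes VISTA, by 1.96 (SE 0.40, adjusted p = 0.00645), and Nt5e and Cd96 by 1.22 and 1.02. The call of Cd96 was lost without CD4+ Tconv replicate 1 (0.92 to 1.10 with 1 array left out), and its sign turned under the linear scaling (-0.22). Pdcd1 and Ctla4 were below background in both subsets (adjusted p = 0.507 and 0.0877), and Ctla4 was called under 2 alternatives.

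MHC class I and antigen processing genes gave 5 of 19 higher in CD8+ T cells and 1 higher in CD4+ Tconv (median 0.52), and 3 and 4 under the linear scaling. The immunoproteasome subunits Psmb10, Psmb8 and Psmb9 were higher by 2.22, 1.60 and 1.05, and the class I gene H2-D1 by 1.81, with the calls of Psmb8 and Psmb9 lost under the linear scaling. H2-T22, a class Ib gene, was called higher in CD4+ Tconv at -1.10, a sign that turned to 0.20 in the deposited values, and the call was lost without CD4+ Tconv replicate 2 (-1.19 to -1.0 with 1 array left out). Class I genes resemble each other, and hybridization across them was not tested. Of 46 interferon response genes, 3 were called higher in CD8+ T cells and 2 higher in CD4+ Tconv, with a median of 0.00 (8 and 1 in the deposited values, median 0.40). Ifit3 and Rtp4 were those higher in CD4+ Tconv (-1.54 and -1.19) and lost their calls in the deposited values. Ifi35, Irf9 and Dhx58 were those higher in CD8+ T cells (1.62, 1.37 and 1.15). Dhx58 lay below background in both subsets. Among the 6 fits with 1 array left out, it kept its call only without CD8+ replicate 3 (0.81 to 1.62).

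Of 33 cell cycle genes, 13 were called higher in CD8+ T cells and 0 higher in CD4+ Tconv (median 0.80, and 15 and 1 under the linear scaling). Ccne1, the G1 cyclin E1, read 13.72, 13.69 and 13.12 in CD8+ T cells and 11.31, 11.54 and 11.79 in CD4+ Tconv (1.96, SE 0.23, adjusted p = 6.23e-04). Top2a, the topoisomerase of dividing cells, read 7.83, 7.90 and 8.03 against 6.42, 5.82 and 5.54, all below background (1.99, SE 0.24, adjusted p = 7.32e-04), and the mitotic kinase Aurkb was higher by 1.63 (SE 0.23, adjusted p = 0.00125). Of 24 genes of glycolysis and nutrient uptake, 10 were called higher in CD8+ T cells and 0 higher in CD4+ Tconv (median 0.83). These counts were 9 and 1 under the linear scaling. Among the 10 were the glycolytic enzymes Tpi1 and Aldoa (1.72 and 1.67) and the glutamine transporter Slc38a1 (1.67). Ribosomal proteins rested on the scaling. Of 36 measured, 1 was called, Rplp0 (2.14, SE 0.32, adjusted p = 0.00160), and the median was 0.01. In the deposited values 17 were called higher in CD4+ Tconv (median -0.84), in centred arrays 19 (median -1.12) and under the linear scaling 35 (median -4.62), while cyclic loess called 0 there (median -0.55). Oxidative phosphorylation genes gave 7 of 58 higher in CD8+ T cells and 6 higher in CD4+ Tconv (median 0.10). These counts were 24 and 2 in the deposited values, 19 and 4 in centred arrays, and 5 and 29 under the linear scaling (median -1.04), so neither list has a settled direction. Uqcrq of complex III differed by 2.14 and Ndufb3 of complex I by -1.81, a call that was lost in the deposited values and in centred arrays.

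Apoptosis regulators had 31.8% of members called, beside 20.6% of all probe sets and 34.6% of those above background. Of 22 measured, 3 were called higher in CD8+ T cells and 4 higher in CD4+ Tconv (median 0.24, and -0.02 when arrays were centred above background). Bcl2, above, was one of the former. Bcl2a1b and Bcl2a1d, near copies of the inducible survival gene A1 that may share signal, were bright and higher in CD4+ Tconv. Bcl2a1b read 16.24, 16.25 and 16.07 there and 14.03, 14.40 and 14.49 in CD8+ T cells (-1.88, SE 0.19, adjusted p = 3.87e-04), and Bcl2a1d differed by -2.09. Cflar, an inhibitor of caspase 8 activation, was higher in CD4+ Tconv by a difference of -1.84 (SE 0.21, adjusted p = 5.82e-04), but not called at -0.61 in the deposited values, and Fasl, above, was also called there. Immediate-early and stress genes gave 4 of 27 higher in CD8+ T cells and 1, Fosb, higher in CD4+ Tconv (median 0.06, and -0.11 in the centred arrays). Junb read 8.64, 8.21 and 8.54 against 6.14, 6.18 and 6.02 (2.35, SE 0.19, adjusted p = 1.81e-04). Dnajb1, a heat shock cochaperone, and Btg2, an antiproliferative gene, were higher by 1.57 and 1.55, and Ppp1r15a, below background, by 1.68. Fosb was below background too (-1.16) and lost its call without CD4+ Tconv replicate 3 (-1.43 to -0.86 with 1 array left out).

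**Figure D3:**
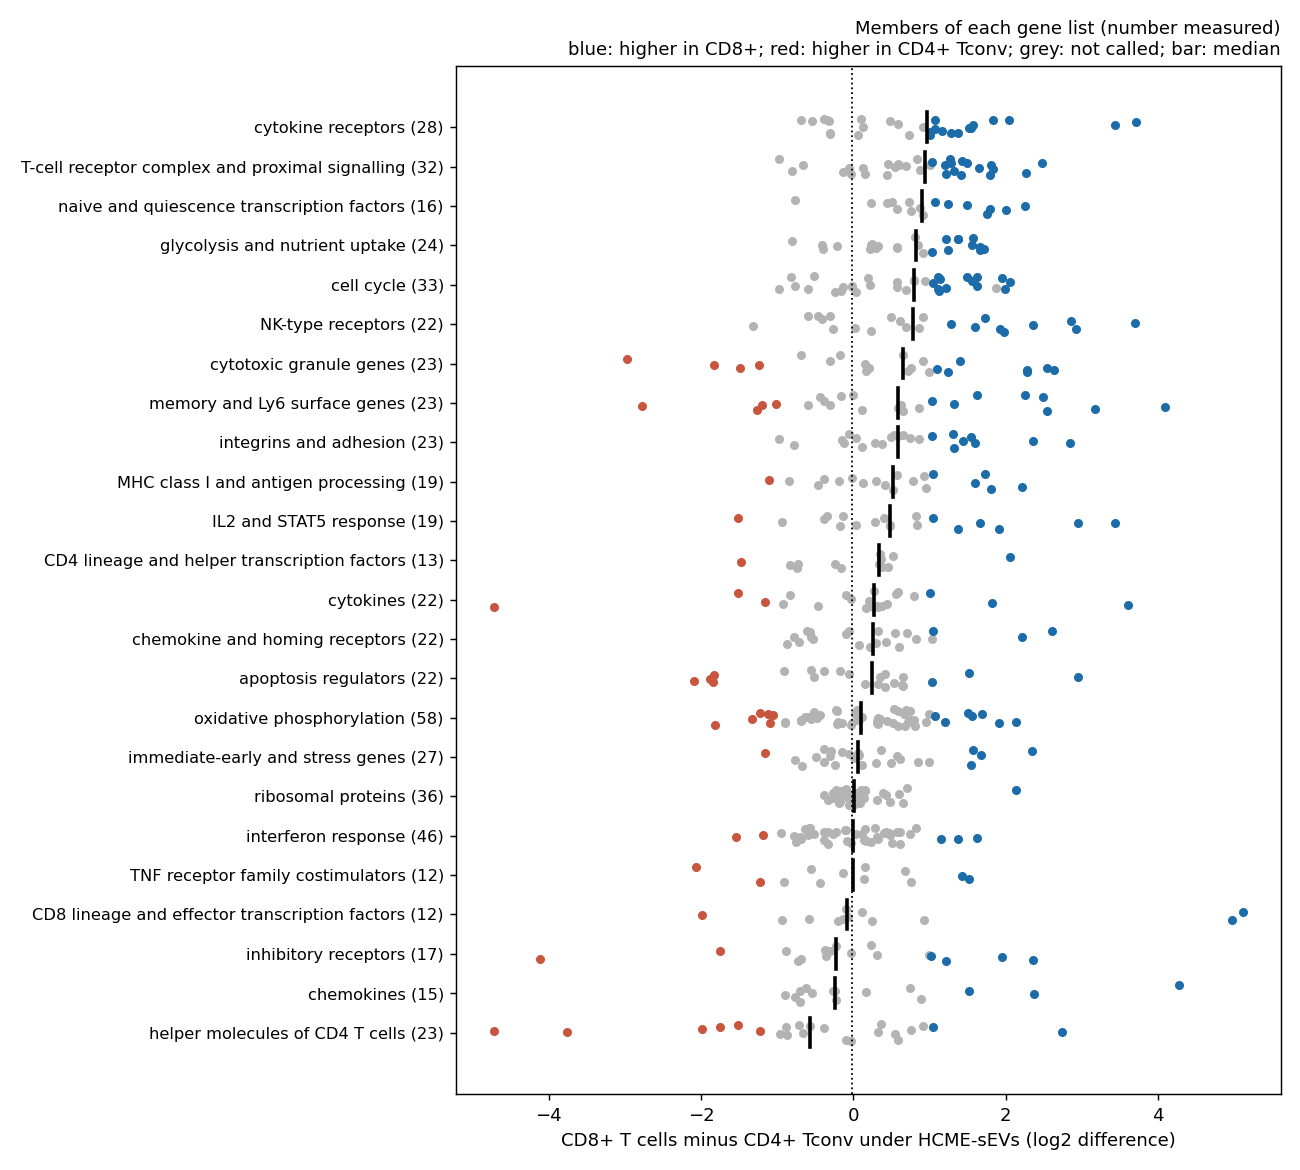
Log2 difference between CD8+ T cells and CD4+ Tconv under HCME-sEVs (horizontal axis) of each measured member of 24 gene lists (rows, with the number measured). Blue and red points were called higher in CD8+ T cells and in CD4+ Tconv, grey points were not called, bars are list medians and the dotted line is the median of all probe sets, -0.02. Cytokine receptors and T-cell receptor genes have the highest medians (0.97 and 0.94) and helper molecules the lowest (-0.57).

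The 20 named genes with the largest positive differences, leaving out predicted genes, receptors and genes below background in the higher subset, ran from 3.83 to 7.46 and held several with no place in the lists. Slc6a19, a transporter of neutral amino acids best known from kidney and gut, read 14.86, 13.75 and 14.04 in CD8+ T cells and 9.73, 8.86 and 9.62 in CD4+ Tconv (4.81, SE 0.34, adjusted p = 1.31e-04). Tlr1, the partner of TLR2 for bacterial lipopeptides, read 13.20, 13.36 and 13.71 against 9.32, 9.44 and 8.73 (4.26, SE 0.24, adjusted p = 7.01e-05). Pmepa1, a TGF beta target that restrains SMAD signalling, read 14.83, 13.97 and 13.76 against 9.16, 9.87 and 9.44 (4.70, SE 0.31, adjusted p = 1.26e-04). Haspin, a mitotic histone kinase, H2ax, the histone variant of DNA repair, and H2-DMa, a chaperone of class II peptide loading, differed by 4.89, 4.33 and 4.45. Kif21b, a kinesin, Cnn2, an actin-binding calponin, Ncstn, the nicastrin subunit of gamma-secretase, and B4galnt1, a ganglioside synthase, differed by 4.0, 4.05, 3.97 and 3.96. Plcxd2, Btbd11, Tor4a and Klra13-ps, a pseudogene of the Ly49 family, completed the 20 with Cd8b1, Cd8a, Eomes, Runx3, Ccl5 and Cd7. Of the 20, 12 lay below background in CD4+ Tconv, all but Cd8b1, Runx3, Slc6a19, Pmepa1, Tlr1, Cd7, Kif21b and B4galnt1, so the size and order of their differences are not firm. Measured against the background of 8.82 in place of their own CD4+ Tconv means, the 12 ran from 0.00 (Tor4a) to 4.13 (Cd8a).

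On the CD4+ Tconv side the 20 largest differences by the same rule ran from -5.32 to -2.92. Lmo7, a LIM domain protein of cell junctions, headed them, reading 10.34, 10.12 and 10.76 in CD4+ Tconv and 4.83, 5.27 and 5.15 in CD8+ T cells (-5.32, SE 0.23, adjusted p = 2.0e-05). A pair of inflammatory caspases was among them. Casp4 read 11.95, 11.62 and 11.27 against 8.02, 8.24 and 8.15 (-3.48, SE 0.22, adjusted p = 9.80e-05) and Casp1 11.35, 11.34 and 11.43 against 7.75, 8.90 and 8.43 (-3.02, SE 0.28, adjusted p = 2.90e-04). Lgmn, a lysosomal asparaginyl endopeptidase, and Itpk1, an inositol phosphate kinase, differed by -4.25 and -3.12. Others are known mainly from tissues other than T cells: Cypt1 from spermatids (-3.81), Sbp from prostate (-3.49), and Ccdc80 and the collagen Col16a1 from matrix (-3.17 and -2.92). Pex13, Fam83a, Btbd35f19, Slc22a17, Tktl1 and Fam114a1 had differences from -4.10 to -3.04, and Il4, Cd200r1, Cd40lg, Trat1 and Rab27a made up the rest. Of the 20, 15 lay below background in CD8+ T cells, Lmo7 and Il4 among them, and against the background of 8.05 in place of their own means they were higher by 1.27 (Slc22a17) to 3.16 (Cd40lg). Receptor probe sets reached the same range, with Olfr1386 at -4.30 and Vmn1r168 at -3.60, which were named after their values were seen. Their part in these genes was not tested.

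Markers of other cells of the spleen were checked for 11 cell types, among them NK cells, above. Of 11 markers of gamma-delta and NKT cells, 4 were called higher in CD4+ Tconv and 0 higher in CD8+ T cells (median -0.83). Zbtb16, the NKT factor PLZF, read 10.48, 10.37 and 11.23 in CD4+ Tconv and 8.01, 8.38 and 8.08 in CD8+ T cells (-2.54, SE 0.26, adjusted p = 3.79e-04). Tmem176b, Cd163l1 and Blk were the others (-2.63, -1.45 and -1.41, with the calls of Cd163l1 and Blk lost in the deposited values), and the summed log2 signal of the list was 11.13 to 11.29 on the CD8+ arrays and 12.38 to 12.84 on the CD4+ Tconv arrays. NKT cells are a source of Il4 and many carry CD4, and the part of this list in the Il4 difference was not tested. B cell markers gave 1 of 15 higher in CD8+ T cells (Cr2, 1.14) and 3 higher in CD4+ Tconv (Bank1, Blk and H2-Aa, median -0.45), with Cd79a below background in both subsets (adjusted p = 0.494). Bank1 read 9.55, 9.40 and 9.63 against 7.05, 7.17 and 7.29 (-2.36, SE 0.17, adjusted p = 1.39e-04). Plasma cell markers gave 1 of 8 in each direction, Xbp1 higher in CD8+ T cells (1.37) and Sdc1 higher in CD4+ Tconv (-1.89), with a median of -0.50. Of 15 monocyte and macrophage markers 2 were called, Lyz2 (-2.29) and Cd14 (-1.21), higher in CD4+ Tconv, with a median of 0.07 that fell to -0.48 under another scaling. Dendritic cell markers gave 2 of 12 higher in CD8+ T cells, Ccr9 and Flt3 (1.05), and 0 higher in CD4+ Tconv, with a median of 0.36.

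Neutrophil and mast cell markers gave 0 of 12 higher in CD8+ T cells and 3 higher in CD4+ Tconv, Elane (-1.15), Cxcr2 (-1.10) and Fcer1a (-1.01), with a median of -0.35 and all 3 below background. Erythroid markers gave 2 of 7 higher in CD8+ T cells, Car2 (1.04) and Tfrc (1.04), and platelet markers 1 of 7 higher in CD4+ Tconv, Itga2b (-2.18), with medians of -0.14 and of -0.04, the latter turning to 0.46 under the linear scaling. Stromal and endothelial markers gave 0 of 11 higher in CD8+ T cells and 4 higher in CD4+ Tconv, Ccl21a (-1.45), Col1a1 (-1.23), Pdgfrb (-1.07) and Ccl19 (-1.0), with a median of -0.74. Ccl21a and Col1a1 were not called in the deposited values or in centred arrays, and Ccl19 was not called in the deposited values or under cyclic loess, which also lost Pdgfrb. Cr2, Flt3, Tfrc and H2-Aa lost their calls in the deposited values too. Cr2, Cd14, Flt3, Tfrc, Pdgfrb and Ccl19 lay below background in both subsets. Several of these calls rested on single arrays. Cr2 and Flt3 were not called without CD4+ Tconv replicate 2 (down to 0.98 and 0.85), nor Car2 and Tfrc without CD8+ replicate 2 (down to 0.89 and 0.81, the former also without CD8+ replicate 3 and the latter without CD4+ Tconv replicate 3). Cxcr2, Elane, Pdgfrb, Ccl19 and H2-Aa were not called without CD4+ Tconv replicate 1, with differences as small as -0.96, -0.90, -0.99, -0.82 and -0.85 when 1 array was left out. Elane, Pdgfrb and Ccl19 also lost the call without CD8+ replicate 1, Ccl19 and H2-Aa without CD8+ replicate 3, and H2-Aa without CD8+ replicate 2. Fcer1a was not called without CD4+ Tconv replicate 3 or CD8+ replicate 2 or 3 (-1.09 to -0.95). Of 15 Treg markers, 2 were higher in CD8+ T cells (Itgae and, below background in both subsets, Ebi3) and 1 higher in CD4+ Tconv (Tnfrsf4). Their median was -0.14 and turned to 0.25 under the linear scaling. Their summed log2 signal was 12.29 to 12.63 on the CD8+ arrays and 12.60 to 12.76 on the CD4+ Tconv arrays. Of 3 Y-linked genes measured, all below background, 0 were called (median 0.22, from -0.30 to 0.97 under the other scalings).

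The same comparison under LME-sEVs used 6 other arrays of the same subsets. There 3028 probe sets were called higher in CD8+ T cells (13.6%) and 3053 higher in CD4+ Tconv (13.7%). Of the probe sets called under HCME-sEVs, 1760 were called higher in CD8+ T cells under both vesicles, which is 77.9% of the HCME calls and 58.1% of the LME calls, and 1829 were called higher in CD4+ Tconv under both, 79.0% and 59.9%. All 20 leading genes on each side kept their call. Receptor probe sets recurred too, 155 of 173 higher in CD4+ Tconv (89.6%) and 14 of 38 higher in CD8+ T cells (36.8%). The CD4+ Tconv arrays of both vesicles lie in the same number run. Here too the run and the subset cannot be told apart. Il2rb differed by 2.67, Klrk1 by 3.89, Nkg7 by 2.67 and Cd40lg by -2.77 under LME-sEVs. No probe set differed between the vesicles in its lineage difference by limma over the 12 arrays (0%, 0 of 22206 at an adjusted p below 0.05, and 2173 at an unadjusted p below 0.05), while 74 did when arrays were centred on their probe sets above background. A p that misses the threshold does not show that the differences were alike.

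Treg, which are CD4+ cells whose arrays share the number run of the CD8+ arrays, gave a comparison that used neither the CD4+ Tconv arrays nor the HCME arrays. It was chosen after seeing the data. CD8+ T cells minus Treg under LME-sEVs called 1220 probe sets higher in CD8+ T cells (5.49%) and 1166 higher in Treg (5.25%). Among receptor probe sets it called 39 of 1427, beside 328 in the comparison with CD4+ Tconv under LME-sEVs and 211 under HCME-sEVs. It also called fewer probe sets in total, 2386 beside 6081 under LME-sEVs and 4574 under HCME-sEVs. Of the probe sets higher in CD8+ T cells than in CD4+ Tconv under HCME-sEVs, 452 were also higher than in Treg, 20% of the former and 37.0% of the latter, and of those lower, 259 were also lower than in Treg, 11.2% and 22.2%. A further 132 were called in opposite directions.

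Among the 20 leading CD8+ genes, 12 were called higher than in Treg as well and 1, Pmepa1, lower (-1.66). Cd8b1 differed from Treg by 6.62, Slc6a19 by 6.14, Cd7 by 6.15, Eomes by 5.24, Tlr1 by 4.71, Runx3 by 3.52 and Ccl5 by 3.47. H2ax, Cnn2, Tor4a and Ncstn differed by less than 1 in size. Of the 20 leading CD4+ Tconv genes, 8 were called higher in Treg than in CD8+ T cells. These were Cd200r1 (-5.81), Casp4 (-4.61), Il4 (-3.29), Casp1 (-2.93), Trat1 (-2.77), Rab27a (-2.10), Col16a1 (-1.49) and Ccdc80 (-1.14). Lmo7, the leading gene, differed by -0.03 and Cd40lg by 0.23, and 8 of the 20 differed by less than 1 in size. Cypt1 and Sbp differed by -0.52 and 0.12. The signs of 19 of 20 and 15 of 20 genes were those of the comparison with CD4+ Tconv.

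**Figure D4:**
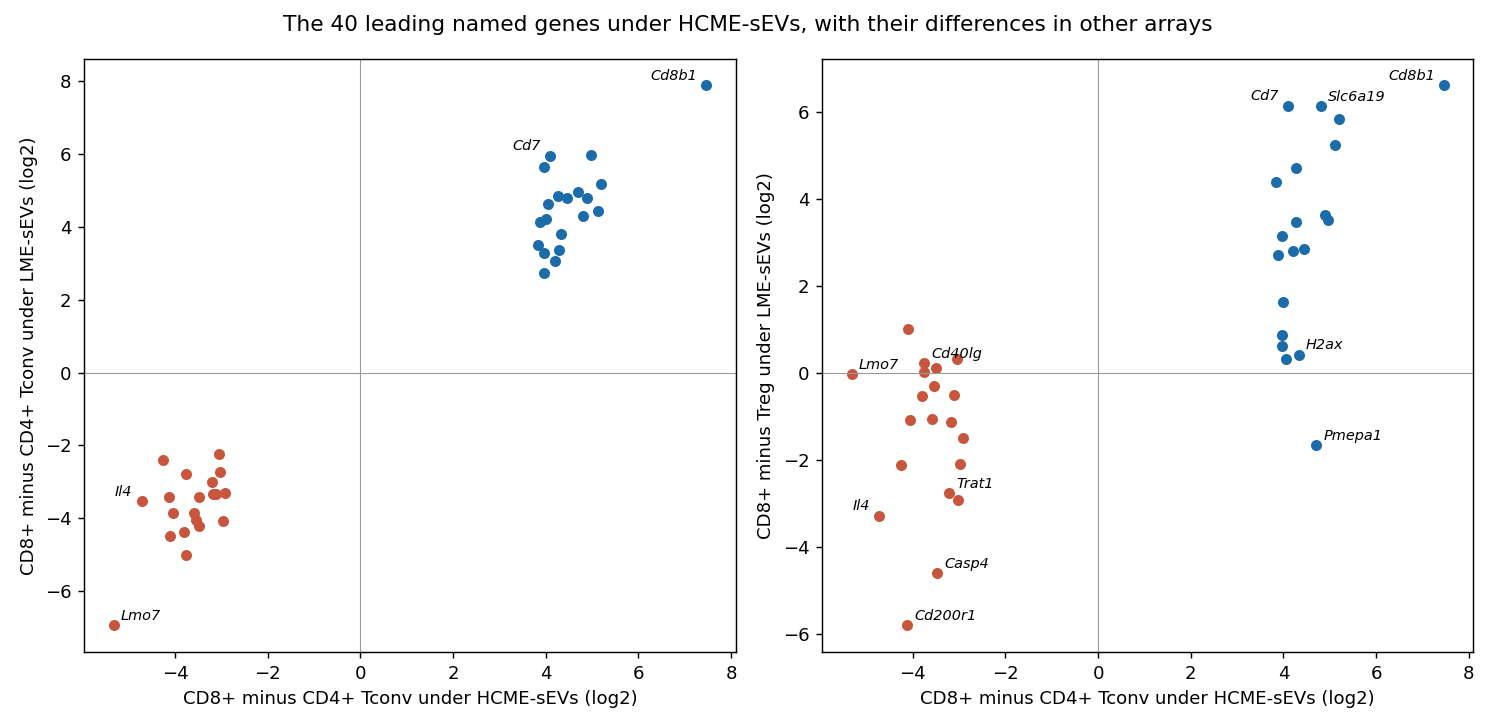
The 40 leading genes, placed by their log2 difference between CD8+ T cells and CD4+ Tconv under HCME-sEVs (horizontal axes) and by the same difference under LME-sEVs (left, vertical axis) or the difference between CD8+ T cells and Treg under LME-sEVs (right, vertical axis). Blue and red points led on the CD8+ and the CD4+ Tconv side. All 40 keep their side on the left, and on the right Lmo7 (-0.03) lies near 0, and Pmepa1 and 5 of the red points, Pex13 (1.01), Fam114a1, Cd40lg, Sbp and Btbd35f19, change sides.

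By list, the comparison with Treg divided the gene groups. NK-type receptors gave 11 of 22 higher in CD8+ T cells than in Treg and 1 lower (median 1.36), and 7 of the 9 called against CD4+ Tconv were among the 11. Klrd1 differed by 8.62 and Klrc1 by 4.74. All 3 chemokines called against CD4+ Tconv, Ccl5, Xcl1 (2.57) and Ccl3 (1.64), were also higher than in Treg. Cell cycle genes gave 2 of 33 higher than in Treg and 0 lower (median -0.25), and glycolysis and nutrient uptake 4 of 24 higher and 3 lower (median -0.01). Of the cytokine receptors 6 of 28 were higher than in Treg and 3 lower, with a median of -0.39, and 2 of the 14 called against CD4+ Tconv were among the 6. Il2rb differed by -2.94 and was not called, and Gzmb was called lower (-2.62). For gamma-delta and NKT markers 0 of 11 were higher than in Treg and 1 was lower (median -0.01), and Zbtb16 differed by -0.01. Treg markers, as a check of that sort, were lower in CD8+ T cells than in Treg for 11 of 15 (median -4.14).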

How the data were processed

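Clariom S mouse arrays recorded the transcripts of CD4+ Tconv, CD8+ T cells and Treg cultured with HCME-sEVs or LME-sEVs, 3 arrays in each of 6 groups. The authors processed the scans with the Transcriptome Analysis Console and deposited 1 log2 signal per probe set and array. The normalization, the genome build and which labelling kit was used (the labels and the methods name different ones) were not settled by the sources used here. Of 22206 probe sets, 19572 had 1 gene symbol and 2634 had none here. For genes with several probe sets, which added 67, the one with the highest mean signal was named.

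The 6 arrays under HCME-sEVs were quantile normalized together, and limma 3.58.1 (R 4.3.3) was fitted with the Benjamini-Hochberg adjustment over all 22206 probe sets. Calls needed an adjusted p below 0.05 and a log2 difference above 1 in size. The same fit was made under LME-sEVs, and the difference between both was fitted over 12 arrays. CD8+ T cells minus Treg was added after the data were seen. Standard errors are those of limma. Fits were tested on simulated data. Exact permutation of 3 against 3 arrays cannot go below 0.1, and the number of arrays limits the precision.

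Named genes were the coreceptors, the 20 largest called differences in each direction with groups that did not overlap and the higher mean above background (without predicted genes and receptors), and up to 6 members of each of 37 lists, called ones first. Other list members are given as values. Of 734 listed genes 651 were measured. Members and lists were chosen with earlier results of these data known. The alternatives were 5 other scalings, a filter on dim probe sets, other variance models, a replicate block, the methods' t-test, and leaving out each array.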

Additional observations from a re-analysis of the deposited data

How the results depend on the processing

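Under HCME-sEVs the counts rested most on the scaling and the thresholds. In the deposited values 3803 probe sets were higher in CD8+ T cells, and in arrays centred above background 3666 were higher in CD4+ Tconv. With a filter on dim probe sets 2820 were called, 1254 of them higher in CD4+ Tconv, since fewer were tested. With no fold threshold 8210 were called, 3902 and 4308 in the respective directions. Leaving out 1 array gave 4137 to 4713 calls. Under LME-sEVs, calls higher in CD8+ T cells numbered 4947 in centred arrays (70.1% of calls, beside 49.8%) and 5573 under the linear scaling (64.8%). The dim filter left 3730, with 1414 higher in CD4+ Tconv, and without a fold threshold 4657 were higher in CD4+ Tconv. Leaving out 1 array gave 5448 to 6149. The interaction of vesicle and subset called 74 probe sets in centred arrays, 1 when all 18 arrays were fitted, and 0 to 2 with 1 array left out, with 1581 to 3940 at an unadjusted p below 0.05 over all settings. List members called numbered 191, with 73.3% higher in CD8+ T cells, beside 63.3% in centred arrays and 50.2% under the linear scaling, and 12 of 37 list medians changed sign under a scaling. The causes were not tested.

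Deviations of CD8+ and CD4+ Tconv arrays with the same replicate number correlated at r = -0.019, 0.033 and 0.006 for replicates 1, 2 and 3. Those with different numbers correlated at -0.036 to 0.035. Whether a replicate number marks a shared animal or day was not tested. With the replicate block 4622 probe sets were called under HCME-sEVs, and the methods' t-test with Benjamini-Hochberg adjustment called 3248.

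Named genes were followed through at most 16 alternatives each. The methods' t-test, the trended robust variance model and the fit without a fold threshold were left out for them. Of 180 named genes, 94 stayed on their side of the thresholds under every alternative followed, 73 lost a call and 9 gained one in at least 1. One alternative used percentile ranks and called differences above 10 points, which genes bright in both subsets may have no room to reach. Trat1, at percentiles 89.6 and 97.8, lost its call only there, as did Bcl2 and Nkg7 among others. Signs turned in the deposited values for Cd3g (0.17), Cd55 (0.03), H2-T22 (0.20) and Prf1 (-0.07), and in centred arrays for Cd79a (-0.08) and Prf1 (-0.35). They turned under the linear scaling for Ccr7 (-1.21), Cd96 (-0.22), Foxp1 (-0.43), Klrd1 (-1.0), Lef1 (-1.06), Ly6c1 (-0.20), Ptprc (-2.20), Tbx21 (0.13) and Txnip (-2.23). With 1 array left out they turned for Tbx21 (-0.36 to 0.15, above 0 without replicate 2 of either subset), Pdcd1 (-0.36 to 0.02, above 0 without CD4+ Tconv replicate 3) and Cd3d (-0.12 to 0.08, above 0 without CD8+ replicate 1).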
